A study of Mus musculus with 4 samples.

Results

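The lipid-sensing and hormone nuclear receptors described here are Pparg, Ppard, Rxra, Rxrb, Nr1h3, Nr1h2, Rara, Nr1d1, Nr3c1 and Vdr. Their accessible regions were the merged ATAC-seq regions that carried the name of 1 of these 10 genes, where the name was that of the strongest peak in the region. There were 73 such regions among 60710 in all, and they belonged to 9 of the 10 genes. ATAC-seq uses the Tn5 transposase to insert adapters into open chromatin. It was applied to wild-type BMDMs, which are bone marrow-derived macrophages, from mice of 8 to 12 weeks on the C57BL/6 background. Both groups were differentiated for 6 days with L929 supernatant as the source of MCSF, and were then kept as control (n = 2 libraries) or given 20 ng/ml IL-4 during 1 h (n = 2 libraries). The comparison asks where chromatin at these genes had opened or closed early in alternative polarization.

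Nuclear receptors are transcription factors that a small lipophilic ligand switches between corepressors and coactivators. The PPARs respond to fatty acids, the LXRs (Nr1h3 and Nr1h2) to oxysterols, RARα to retinoic acid, REV-ERBα (Nr1d1) to heme, and the glucocorticoid and vitamin D receptors (Nr3c1 and Vdr) to hormones. PPARs, LXRs, RARs and VDR bind DNA with an RXR partner at repeats of the half-site AGGTCA, whereas the glucocorticoid receptor binds as a homodimer. In macrophages PPARγ and the LXRs control lipid uptake and cholesterol efflux, and IL-4 acts through STAT6, which prefers TTC and GAA separated by 4 bases (TTCNNNNGAA).

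In all, control replicates 1 and 2 held 45250 and 41885 peaks, and IL-4 replicates 1 and 2 held 41978 and 39462. Values below follow this order. Peak height is given as −log10 of the q-value of the peak caller. This value scores how far a peak stands above the background within 1 library and increases with depth, which is unknown because no read counts were used here. The median height ranged from 6.41 in IL-4 replicate 2 to 8.04 in control replicate 1. Among 8 macrophage markers, 4 had a promoter peak in each library, whereas Adgre1 and Spi1 gave their name to no peak in any library. A region without a peak is thus one for which no peak is listed, and whether the lists hold every called peak was not tested. None of the 5 T cell, 3 erythroid or 3 fibroblast markers had a promoter peak. Of 4 B cell markers at most 1 did, of 4 neutrophil markers 1 did in every library, and of 3 dendritic cell markers 0 to 2 did.

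Pparg and Rara held the IL-4-only regions among these genes, and Rxra and Rara held the control-only regions. An IL-4-only region has a peak in both IL-4 libraries and in neither control library, and a control-only region is the reverse. There were 3 IL-4-only regions (4.11% of the 73) and 4 control-only regions (5.48%), beside 2.53% and 4.33% of all regions. The share near that of all regions is not a result about these genes. The sequences of these regions are shown because they carry the group-specific peaks, with a STAT spacing (4 or 3 bases) in capitals, or, where a region has none, an AGGTCA half-site or the PU.1 motif GAGGAAGT on either strand. The Pparg intron 5 and the Rara intron 1 regions hold none of these. The bases were read from GRCm38.p6, the assembly behind mm10, and coordinates are on mm10. For the Pparg start region, which lies over exon 1, only the 30 bases around its half-site are given.
Pparg start region, IL-4-only, chr6:115361104-115361133, plus strand: agccgccgcctcAGGTCAgagtcgccccgg
Pparg intron 5, IL-4-only, chr6:115469930-115470101, plus strand: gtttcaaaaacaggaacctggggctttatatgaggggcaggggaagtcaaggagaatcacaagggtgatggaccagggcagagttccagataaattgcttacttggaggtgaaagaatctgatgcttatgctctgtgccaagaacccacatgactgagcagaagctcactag
Rara intron 2, IL-4-only, chr11:98949646-98949895, plus strand: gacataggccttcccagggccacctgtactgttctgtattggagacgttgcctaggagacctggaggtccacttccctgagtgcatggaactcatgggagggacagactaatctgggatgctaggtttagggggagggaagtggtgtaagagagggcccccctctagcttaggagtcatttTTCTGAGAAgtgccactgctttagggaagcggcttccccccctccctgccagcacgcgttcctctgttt
Rara intron 2, control-only, chr11:98948416-98948565, plus strand: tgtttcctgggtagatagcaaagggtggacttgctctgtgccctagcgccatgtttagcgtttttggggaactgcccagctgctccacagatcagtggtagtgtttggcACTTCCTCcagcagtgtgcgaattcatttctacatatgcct
Rara intron 1, control-only, chr11:98941875-98942045, plus strand: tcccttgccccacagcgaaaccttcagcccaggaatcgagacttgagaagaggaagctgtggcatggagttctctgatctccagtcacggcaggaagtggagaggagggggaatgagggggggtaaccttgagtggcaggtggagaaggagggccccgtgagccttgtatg
Rxra intron 1, control-only, chr2:27715306-27715562, plus strand: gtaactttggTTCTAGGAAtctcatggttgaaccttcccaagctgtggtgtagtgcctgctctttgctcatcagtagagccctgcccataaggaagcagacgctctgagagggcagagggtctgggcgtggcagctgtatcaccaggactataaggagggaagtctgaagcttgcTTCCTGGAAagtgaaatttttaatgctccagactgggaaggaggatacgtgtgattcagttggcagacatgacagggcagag
Rxra intron 1, control-only, chr2:27716574-27716710, plus strand: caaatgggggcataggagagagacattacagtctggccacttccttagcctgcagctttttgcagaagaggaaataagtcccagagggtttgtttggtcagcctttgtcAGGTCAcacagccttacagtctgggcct

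A further 3 stretches of 100 bases show the 4-base STAT spacing in regions that were not specific to a group. The Rara region (chr11:98943469-98943697) had peaks only in control replicate 1 (3.47) and IL-4 replicate 1 (4.63). Its match lay within the IL-4 replicate 1 peak alone.
Pparg intron 1, chr6:115375564-115375663, plus strand: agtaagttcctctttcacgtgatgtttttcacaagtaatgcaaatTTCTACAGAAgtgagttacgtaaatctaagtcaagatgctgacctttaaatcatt
Rara intron 1, chr11:98943589-98943688, plus strand: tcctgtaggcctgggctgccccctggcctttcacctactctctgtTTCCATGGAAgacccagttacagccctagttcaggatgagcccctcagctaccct
Nr1d1 intron 1, chr11:98774084-98774183, plus strand: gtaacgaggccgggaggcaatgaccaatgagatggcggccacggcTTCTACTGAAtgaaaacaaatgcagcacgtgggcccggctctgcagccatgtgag

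The number of peaks in these regions did not separate the groups. Control had 55 and 49 peaks and IL-4 had 50 and 39, so that the groups overlapped. The means were 52.0 ± 4.24 and 44.5 ± 7.78 (SD, n = 2), a difference of −7.5 with an exact two-sided permutation p of 0.6667, where 0.3333 is the smallest p that the design allows. As a share of all peaks of a library, the counts came to 0.1215% and 0.117% in control and 0.1191% and 0.09883% in IL-4. IL-4 replicate 2 was the lowest library on both scales. Of the 73 regions, 25 (34.2%) had a peak in all 4 libraries and 17 (23.3%) in a single library, compared with 41.9% and 29.6% of all regions. By the annotation of the peak lists 43 (58.9%) were intronic, 18 (24.7%) intergenic, 11 (15.1%) at promoters and 1 in an exon. Of all regions 40.2% were intronic, 35.8% intergenic and 18.8% at promoters. Some regions listed as intergenic, at Nr3c1, Nr1h3 and Rara, lie within these genes in the GRCm38.p6 annotation.

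**Figure D1:**
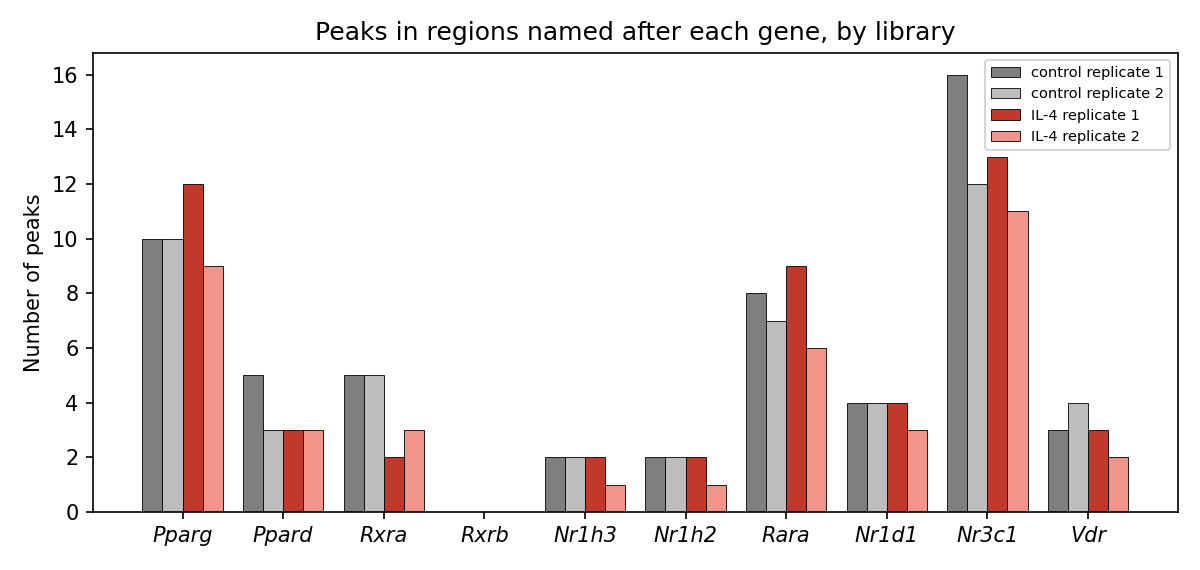
Number of peaks (vertical axis) in the regions named after each of the 10 genes, with 1 bar per library and no error bar, since each bar is a single count. Nr3c1 had the most peaks in control replicate 1 (16) and Rxrb had none in any library.

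**Figure D2:**
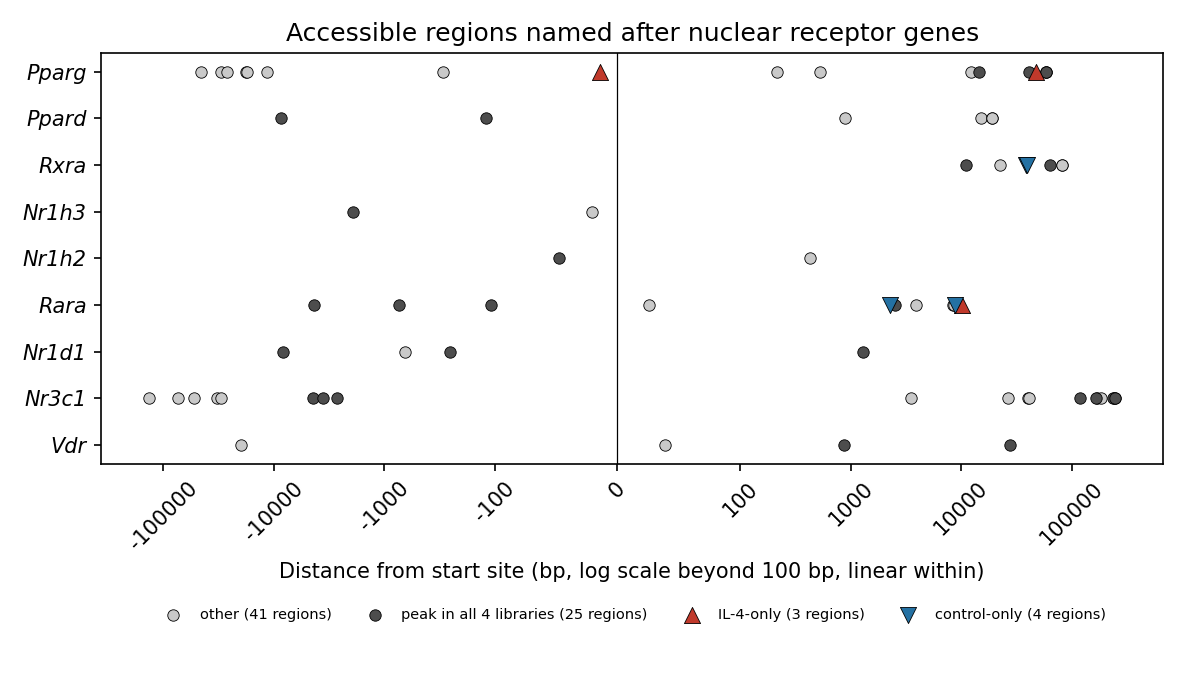
Distance of each of the 73 regions from the start site given in the peak lists (horizontal axis, bp, log scale beyond 100 bp on either side), by gene, with symbols for the 4 classes of region. The 3 IL-4-only regions lay at Pparg and Rara, and the 4 control-only regions at Rxra and Rara.

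Pparg encodes PPARγ, the fatty acid receptor of adipocytes and of alternatively activated macrophages. It had 17 regions from 45209 bp upstream to 58833 bp downstream of a start site, 3 of them with a peak in all 4 libraries and 2 IL-4-only. The IL-4-only start region (chr6:115361019-115361313, promoter annotation, −14 bp) had heights of 5.67 and 5.95 in the IL-4 libraries and no peak in the control libraries. In the GRCm38.p6 annotation it covers the start of NM_001308352. Both peaks were of middling height, at percentile 34.4 and 45.7 of their libraries. A separate region 15 bp upstream (chr6:115360857-115361003) covers the start of NM_001127330, the PPARγ1 transcript. It had a height of 5.12 in control replicate 1 and 1.43 in IL-4 replicate 1. The IL-4 peak was at percentile 0.0453 of its library, and weaker than the q of 0.01 that the methods name. A region 70 bp downstream of the IL-4-only region had a single peak of 3.86 in control replicate 1. Farther downstream, chr6:115361677-115361814 had a single peak of 8.14 in IL-4 replicate 1, at percentile 53.8. Peaks around the start were thus found in both groups, and control replicate 2 had none of them. When peaks up to 500 bp apart were joined, the start region was no longer IL-4-only.

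The other IL-4-only region of Pparg lay in intron 5 of 6 of NM_011146, the PPARγ2 transcript (chr6:115469930-115470101, 47949 bp downstream). Its height was 6.62 in IL-4 replicate 1 and 12.39 in IL-4 replicate 2, with no peak in the control libraries. The peaks of both IL-4 libraries shared 117 of its 172 bases, and the stronger was at percentile 80.3 of its library. No motif searched was found in it, neither STAT spacing nor half-site, AP-1 (TGANTCA with C or G at N) nor PU.1. The start of NM_011146 itself had no region closer than 12177 bp, so that a peak was called over the PPARγ1 start and none over the PPARγ2 start.

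Of the 3 Pparg regions with a peak in all 4 libraries, the intron 1 region (chr6:115375439-115375938, 14457 bp downstream) had heights of 3.5 and 2.56 in control and 6.52 and 4.55 in IL-4. Both IL-4 libraries were above both control libraries. The log2 difference was 1.07 (SE 0.55, n = 2, limma adjusted p = 0.613), so that it did not pass the test. The peaks of the 4 libraries shared no base in this region. Its TTCTACAGAA match lay only within the peak of IL-4 replicate 1. The control peaks sat at opposite ends of the region, and IL-4 replicate 2 had a short peak at each end. The exon 6 region (chr6:115462998-115463290) was the highest of Pparg, with 14.78 and 9.76 in control and 16.56 and 15.37 in IL-4. The groups did not overlap, and the log2 difference was 0.63 (SE 0.37, limma adjusted p = 0.679). The region in the last intron (chr6:115480370-115480630) was lower in both IL-4 libraries, with 9.64 and 12.5 in control and 6.7 and 4.89 in IL-4. It gave a log2 difference of −0.68 (SE 0.50, limma adjusted p = 0.771), which was −0.387 without control replicate 2.

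**Figure D3:**
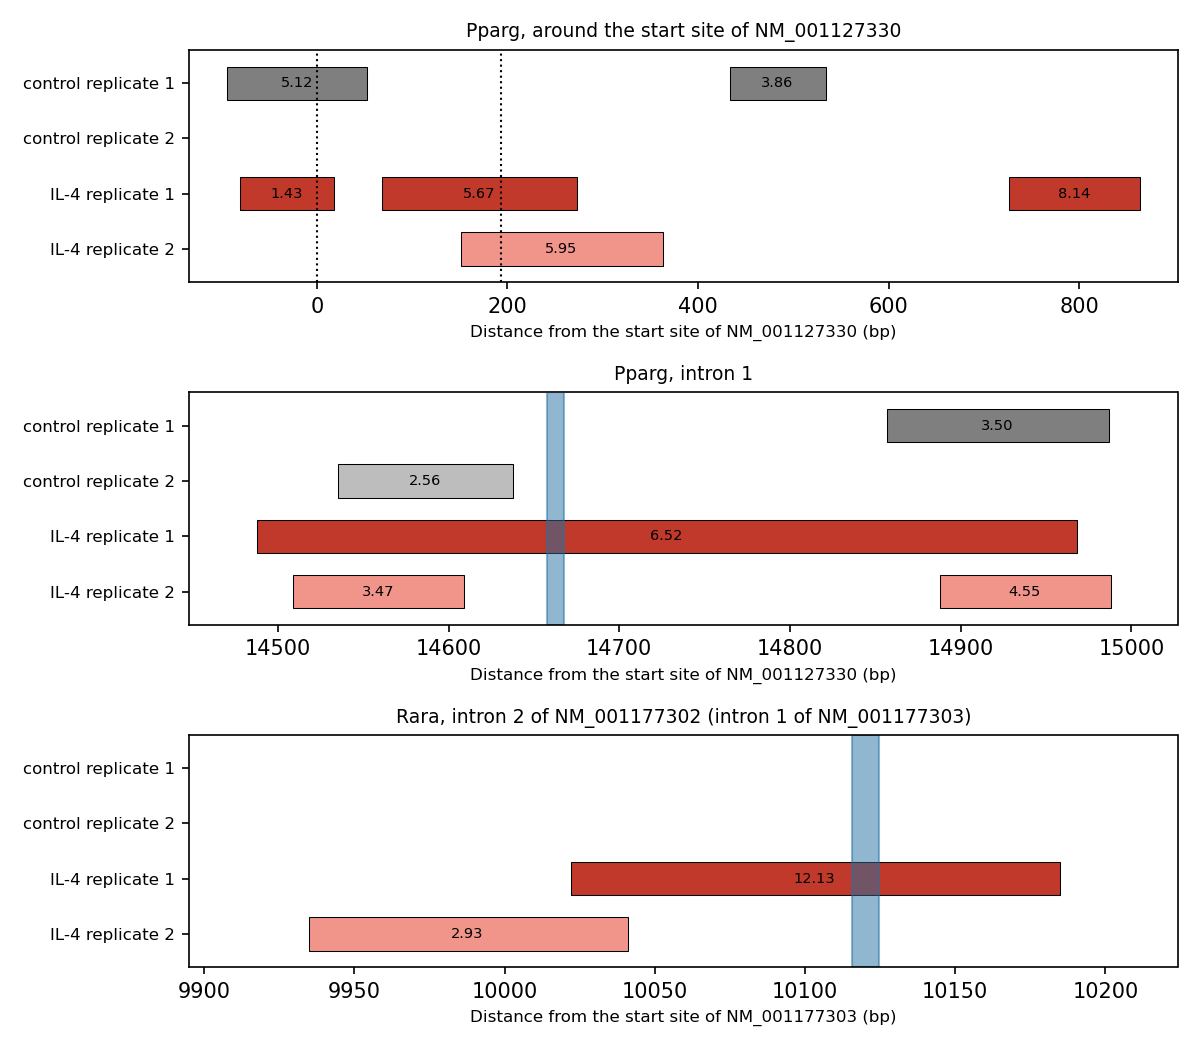
Peaks of each library as bars along the distance from a start site in the GRCm38.p6 annotation (horizontal axis, bp), with the height written in each bar. Dotted lines mark start sites and blue bands a STAT spacing, of 4 bases in Pparg intron 1 and 3 bases in Rara. The blue band lies only within an IL-4 replicate 1 peak in both introns.

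Ppard, which encodes the broadly expressed PPARδ, had 6 regions and none specific to a group. Its promoter region (chr17:28232521-28232827, −120 bp) covers the start of NM_011145, with heights of 8.03 and 10.62 in control and 11.12 and 4.76 in IL-4. The IL-4 libraries lay on either side of the control libraries, and the log2 difference was −0.09 (SE 0.50, limma adjusted p = 0.981). The only other region with a peak in all 4 libraries lay within intron 7 of 10 of the neighbouring gene Def6, 8503 bp upstream, at 6.72 and 13.01 in control and 6.62 and 5.75 in IL-4.

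The RXR partners differed in what could be seen. Rxra had 7 regions, all intronic, and the one closest to the start of NM_011305 lay 10858 bp from it. This region (chr2:27688059-27688303, intron 1 of 9) had heights of 20.2 and 9.97 in control and 3.91 and 11.21 in IL-4. The heights of the groups overlapped, since IL-4 replicate 2 exceeded control replicate 2. The log2 difference of −0.89 (SE 0.49, limma adjusted p = 0.651) rested on IL-4 replicate 1, and without that library it was 0.05. Both control-only regions of Rxra were weak. The one at chr2:27715306-27715562 (intron 1, 38260 bp) had 3.43 and 3.21 in control, and the one at chr2:27716574-27716710 (39451 bp) had 2.31 and 5.22. The former lay 4723 bp from the start of NM_001290482, a transcript with a start farther downstream. The former held the 3-base STAT spacing (TTCNNNGAA) at 2 positions, shown above. The first match lay within the peak of control replicate 2 alone, and the second within both control peaks. Rxrb, which encodes RXRβ, gave its name to no region. Its start at position 34031812 of chromosome 17 lay inside a region named after the divergent neighbour Slc39a7 (chr17:34031492-34031840), with 4.4 and 5.91 in control and 4.27 and 6.27 in IL-4. The groups overlapped there.

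The LXR genes were open at their starts in both groups. Nr1h3, encoding LXRα, had a promoter region (chr2:91195049-91195225, −21 bp) at 5.15 and 4.82 in control and 4.56 in IL-4 replicate 1, with no peak in IL-4 replicate 2. Its stronger region (chr2:91196738-91197167, 1913 bp upstream) had 11.41 and 15.68 in control and 10.27 and 10.85 in IL-4. Both IL-4 heights were below both control heights, but after quantile normalisation the log2 difference was only −0.12 (SE 0.41, limma adjusted p = 0.968). Nr1h2, encoding LXRβ, had its promoter region (chr7:44553886-44554110, −48 bp) at 8.04 and 8.23 in control and 8.49 and 14.53 in IL-4. Both IL-4 heights were above both control heights, the first by little. The log2 difference was 0.69 (SE 0.47, limma adjusted p = 0.749), and it was 0.145 without IL-4 replicate 2 and 1.22 without IL-4 replicate 1.

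Rara, encoding RARα, held the strongest regions of the set. The region at its internal promoter (chr11:98959528-98959929, 734 bp upstream of NM_001176528) had heights of 26.73 and 21.22 in control and 22.31 and 26.26 in IL-4, at or above percentile 91.9 of every library. A region 4294 bp upstream of a start (chr11:98933236-98933541) had 26.02 and 26.58 in control and 22.44 and 16.39 in IL-4. The peak lists annotate it as intergenic, whereas in the GRCm38.p6 annotation it lies within Rara, which begins at 98927800. Neither passed the test, with log2 differences of 0.16 (SE 0.26, limma adjusted p = 0.926) and −0.29 (SE 0.27, limma adjusted p = 0.832). The promoter region closest to a start, over the start of NM_001176528 (chr11:98960377-98960581), had no peak in control replicate 1, 3.7 in control replicate 2 and 3.53 and 2.78 in IL-4. Another promoter region (chr11:98937494-98937709, −107 bp) covers the start of NM_009024 and had a peak in all 4 libraries. Its heights were 9.33 and 5.44 in control and 10.17 and 6.56 in IL-4, so that the groups overlapped. The log2 difference was 0.45 (SE 0.50, limma adjusted p = 0.875).

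Group-specific peaks at Rara all lay in intron 1 of the transcript NM_001177303. The IL-4-only region and the farther control-only region are numbered here by another transcript, NM_001177302, as its intron 2. The IL-4-only region (chr11:98949646-98949895, intron 2 of 9, 10103 bp) had heights of 12.13 and 2.93 in the IL-4 libraries. The 2 peaks overlapped by only 19 of 250 bases, and the TTCTGAGAA match lay within the replicate 1 peak alone, so that under a minimum overlap of 50 bp the region was no longer counted. The control-only region in intron 1 (chr11:98941875-98942045, 2246 bp) had 8.95 and 6.82, and lay 99 bp from a region with a peak in all 4 libraries, at 3.5 and 9.72 in control and 2.95 and 5.46 in IL-4. The control-only region in intron 2 (chr11:98948416-98948565, 8783 bp) had 6.67 and 4.5, held a PU.1 match, and lay 138 bp from a region with peaks of 5.46 in control replicate 1 and 8.67 in IL-4 replicate 1. Both lost the control-only class when peaks up to 500 bp apart were joined.

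**Figure D4:**
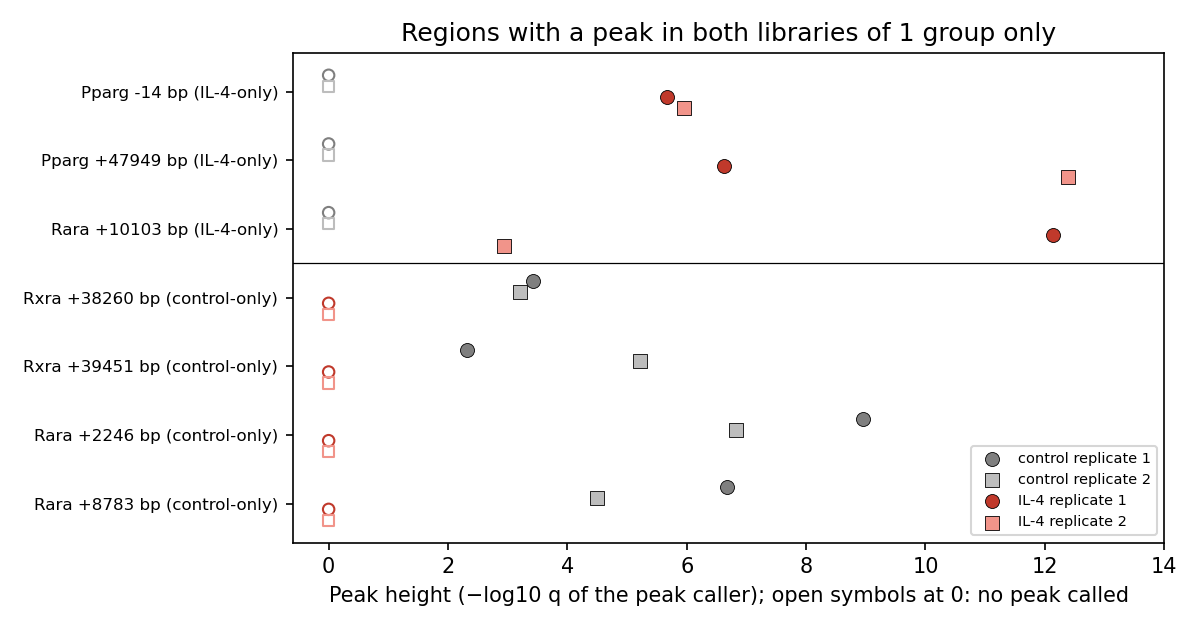
Peak height in each library (horizontal axis, −log10 q) for the 7 group-specific regions, labelled by gene and distance from the start site. Filled symbols are peaks and open symbols at 0 are libraries without a peak. The Rara IL-4-only region spans 2.93 to 12.13 between replicates, and the 4 control-only regions stay at or below 8.95.

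Nr1d1, encoding the clock repressor REV-ERBα, had 4 regions, 3 of them with a peak in all 4 libraries. The intergenic region 8261 bp upstream (chr11:98783341-98783666) had heights of 20.76 and 19.36 in control and 12.5 and 6.76 in IL-4. Both IL-4 libraries were well below both control libraries, and the log2 difference was −0.90 (SE 0.37, unadjusted p = 0.0185, limma adjusted p = 0.497), the lowest among the fitted regions, and did not pass the test. The promoter region (chr11:98775320-98775677, −256 bp) had 5.4 and 5.14 in control and 7.31 and 5.02 in IL-4, so that the groups overlapped, with a log2 difference of 0.43 (SE 0.54, limma adjusted p = 0.89). The intron 1 region, with the TTCTACTGAA match shown above, had 13.23 and 15.6 in control and 10.92 and 11.78 in IL-4, and the match lay within the peak of all 4 libraries. Its log2 difference was −0.11 (SE 0.39, limma adjusted p = 0.967).

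Nr3c1, encoding the glucocorticoid receptor, had the most regions, 20 in all, from 132857 bp upstream to 246021 bp downstream of its start. Of these, 7 had a peak in all 4 libraries and none was specific to a group. There were 8 regions inside introns of the convergent neighbour Arhgap26, so that their link to Nr3c1 rests on distance to the start site alone. The region 3548 bp upstream (chr18:39490694-39491114) covers the start of NM_001361210 and had heights of 3.55 and 2.19 in control and 7.24 and 7.82 in IL-4. Both IL-4 libraries were above both control libraries. This was the highest log2 difference among the fitted regions, at 1.76 (SE 0.55, unadjusted p = 0.00227, limma adjusted p = 0.292), but did not pass the test. The peaks of the 4 libraries shared no base here, and the 4-base STAT spacing of the region lay within the peaks of both IL-4 libraries and of control replicate 1.

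The farthest Nr3c1 region (chr18:39241026-39241423, intron 14 of 22 of Arhgap26) had 5.63 and 12.53 in control and 14.03 and 12.28 in IL-4. Control replicate 1 was low and control replicate 2 lay between the IL-4 libraries. The log2 difference was 0.89 (SE 0.45, limma adjusted p = 0.615), and it was 0.21 without control replicate 1 and 1.58 without control replicate 2. The peaks of all 4 libraries shared 264 bases and all held the 4-base STAT spacing. The region nearest to the start given in the peak lists (chr18:39489750-39490109, 2663 bp upstream) covers the start of NM_001361211 in the GRCm38.p6 annotation. It had 12.5 and 8.43 in control and 10.02 and 7.86 in IL-4, with a log2 difference of 0.03 (SE 0.46, limma adjusted p = 0.994). A further region (chr18:39319670-39320013) had 14.16 and 9.12 in control and 8.74 and 12.47 in IL-4, with overlapping groups and a log2 difference of 0.10 (SE 0.43, limma adjusted p = 0.976).

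Vdr, encoding the vitamin D receptor, had 4 regions. The start region (chr15:97908103-97908412, 39 bp) had 4.05 and 8.57 in control, 3.37 in IL-4 replicate 1 and no peak in IL-4 replicate 2. The intron 1 region 875 bp downstream had 4.0 and 3.25 in control and 5.58 and 4.61 in IL-4, and did not overlap between groups. Its log2 difference was 0.77 (SE 0.55, limma adjusted p = 0.762). The intron 3 region (chr15:97880587-97880869) was the highest of the gene by the mean over the libraries with a peak. It had 6.96 and 3.78 in control and 7.57 and 5.85 in IL-4. The peaks of the 4 libraries shared only 2 of its 283 bases. The log2 difference was 0.59 (SE 0.54, limma adjusted p = 0.83), and it was 0.895 without control replicate 1 and 0.267 without control replicate 2.

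Across the 25 fitted regions, limma on log2 height with quantile normalisation called none at an adjusted p below 0.05, with 0.292 as the lowest adjusted p. Among the 25442 regions tested in all, 0.0157% were called higher and 0.00786% lower with IL-4. At an unadjusted p below 0.05 there were 2 of the 25 (8.0%), against 8.28% of all regions. The log2 differences ran from −0.90 to 1.76 with a median of 0.03, and 13 were above and 12 below 0. Over all tested regions the median was −0.000648. The other 48 regions lacked a peak in at least 1 library and could not enter the fit. Heights that do not overlap between groups are not a result by themselves. With 2 against 2 libraries the smallest exact permutation p is 0.3333, and the share of all regions without overlap was not counted. With 2 libraries per group, what the fit can call is limited by a variance that is moderated over all tested regions. Its standard errors are thus not the spread of the libraries at 1 region alone. The methods speak of biological replicates, while the labels do not say whether they came from separate animals.

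**Figure D5:**
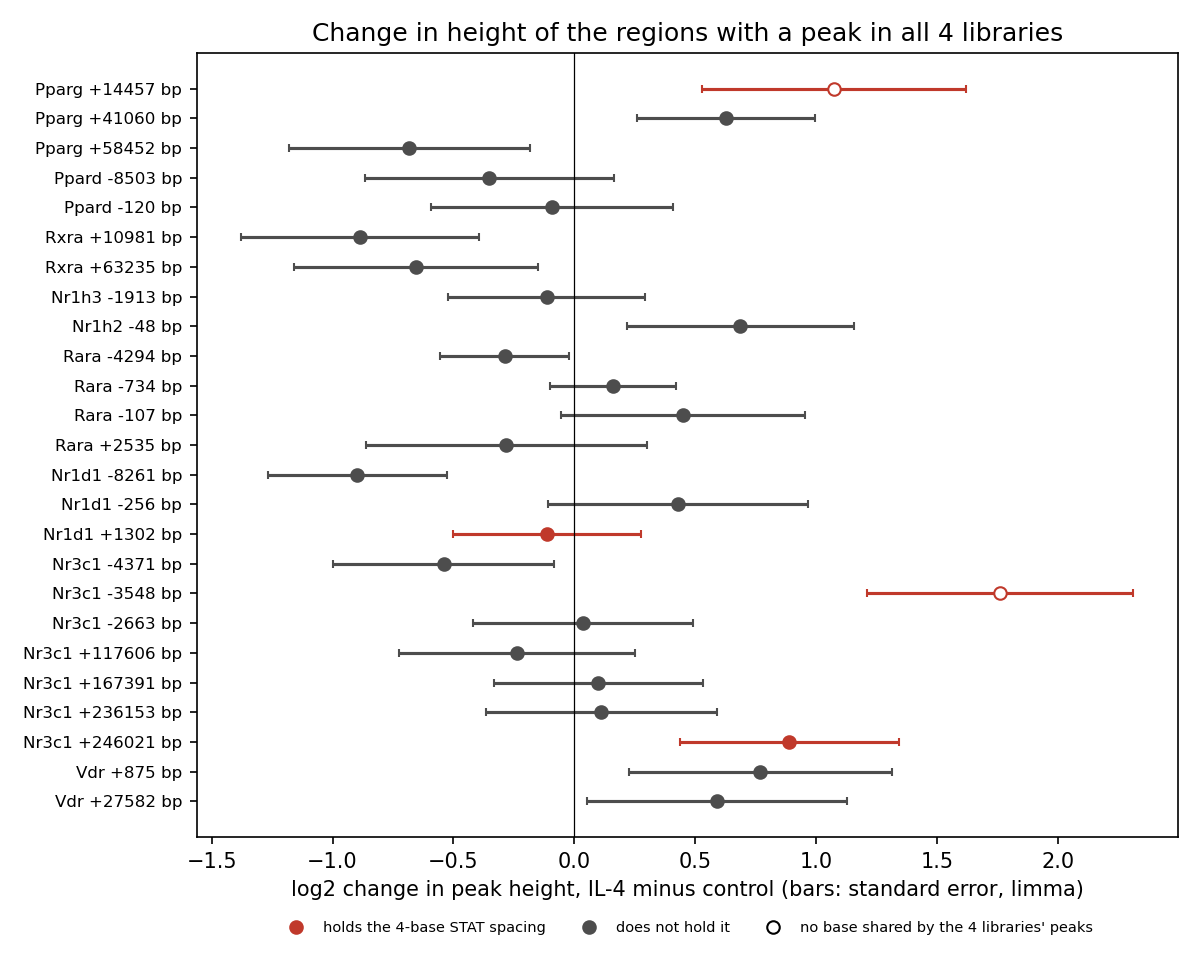
log2 difference in peak height, IL-4 minus control (horizontal axis), for the 25 regions that all 4 libraries shared, with standard errors from limma as bars (n = 2 libraries per group). Red marks regions that hold the 4-base STAT spacing and open symbols the 2 regions in which the 4 libraries' peaks share no base. These 2 have the highest values, 1.76 and 1.07.

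The 4-base STAT spacing stood in 6 of the 73 regions (8.22%), against 7.22% of all regions, 30.9% of all IL-4-only and 2.24% of all control-only regions. It was in none of the 3 IL-4-only regions of these genes. Of the 25 fitted regions, 4 held it, and these included the 3 with the highest log2 differences (1.76 and 0.89 at Nr3c1 and 1.07 at Pparg) and the Nr1d1 intron 1 region at −0.11. The median was 0.98 for these 4 and −0.09 for the other 21, which is a description of few regions with no test. Over all tested regions the medians were 0.18 with the spacing and −0.02 without it. In the 2 with the highest values the 4 libraries' peaks shared no base, which was so in 1.34% of the regions common to all 4 libraries. Whether merging of separate peaks contributed to these values was not tested.

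The 3-base STAT spacing stood in 8 regions (11.0%, against 6.9% of all), the half-site AGGTCA in 13 (17.8% against 14.4%), AP-1 in 17 (23.3% against 18.1%) and PU.1 in 7 (9.59% against 9.87%). DR1 and DR4, the receptor repeats with 1 and 4 bases between half-sites, and the glucocorticoid response element were in 0 of the 73, and in 0.511%, 0.38% and 0.0577% of all regions. Matches were counted on both strands and are not evidence of binding.

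Partners and targets of these receptors were described by the same counts, to be read beside the 2.53% of all regions that were IL-4-only and the 4.33% that were control-only. Of 14 coregulator genes, all had regions, 123 in total, with 1 IL-4-only (0.813%), and limma called none of the 44 fitted regions. The IL-4-only region lay 1426 bp upstream of Ppargc1b, which encodes the coactivator PGC-1β, at 5.53 and 5.3. Of 24 target genes, all had regions, 147 in total, with 3 IL-4-only (2.04%) and 6 control-only (4.08%), and none of 55 fitted regions was called. The IL-4-only regions lay at the Cd36 promoter (−102 bp, 3.13 and 4.78), in an intron of Clock (2.95 and 3.73) and in an intron of Cyp26b1 (5.96 and 3.47). The control-only regions were at Per1 (9.57 and 7.39), Klf9 (6.93 and 7.15), Plin2 (4.85 and 5.46) and Lpcat3 (3.17 and 2.66). The rest were at Arntl, upstream (2.99 and 8.11) and in an intron (5.65 and 6.18). Cd36, the fatty acid scavenger receptor, is a PPARγ target, and Cyp26b1 degrades retinoic acid. Of 22 other nuclear receptor genes, 15 had a region, 84 in total, with 2 IL-4-only (2.38%), at Rxrg and Nr2f2, and 0 control-only. Of their 34 fitted regions 22 had a log2 difference above 0 with a median of 0.18, and limma called none, with 0.249 as the lowest adjusted p. Over all 25442 tested regions 12702 were above 0 with a median of −0.000648, so that these counts are a description with no test. The genes of these lists were named after their values were seen.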

How the data were processed

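ATAC-seq of 4 libraries of wild-type mouse BMDMs was analysed from the peak lists, 1 per library. The authors aligned reads to mm10 with BWA (0.7.10), called peaks with MACS2 (2.0.10) per library without pooling, removed blacklisted regions and annotated peaks with HOMER (4.2); SAMtools (0.1.19) is also named in the submitters' processing notes. The deposited peak score was read as −log10 of the q-value, and reaches 1.3 although the methods name a q of 0.01. Tn5 shifting and duplicate handling were not given in the sources used here. The lists hold no read counts, so depth is unknown.

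Peaks overlapping by 1 bp or more were merged into 60710 regions, each with its highest peak per library. Start-site distances are those of the lists. They matched GRCm38.p6 RefSeq within 2 bp for 36 of 73 regions, and 40 of 44 intron or exon numbers matched. Heights of regions common to all 4 libraries were compared by limma 3.58.1 (R 4.3.3) on log2, quantile-normalised values with a variance trend and Benjamini-Hochberg adjustment over all 25442. The motif search and the fit were tested on simulated data, and the number of merged regions was checked with bedtools on the same peaks. The members and the gene and marker lists were chosen with earlier results of these data known. Regions named were, per gene, the one nearest a start site and the highest, every group-specific region, and the 3 highest and 3 lowest log2 differences; others were added to complete an account. Alternatives were other joining distances, score minimums, scalings, a replicate block and leaving out each library. The control-only regions of the coregulator list are not reported here. The limma p-values and standard errors rest on the spread between these libraries, moderated over all 25442 regions. They do not measure the spread at 1 region alone.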

Additional observations from a re-analysis of the deposited data

How the results depend on the processing

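The number of regions passing limma at these genes stayed at 0 under every alternative run, whereas over all regions it was 6 in the reported fit, 0 with the sum of peak scores or no variance trend, and 0 to 12 when a library was left out. With the replicate block it was 14 over all regions and still 0 at these genes, with a median of 0.0346. The replicate differences of both groups correlated with r = 0.006765 over regions, so no shared replicate effect was seen in the heights. This cannot tell whether libraries of the same number came from the same animal or day, which the labels do not say. The median log2 difference ranged from −0.0793 to 0.2 without 1 library, the latter without control replicate 2. The 3 IL-4-only regions became 0 with peaks at or above the pooled median height of 7.37, where none of the 4 control-only regions kept its class either and 2 other regions entered it. When peaks up to 500 bp apart were joined, 2 control-only regions remained, both at Rxra. Without 1 library, which loosens the definition, there were 5 IL-4-only regions whichever library was left out and 4 to 13 control-only regions (9 and 12 without control replicates 1 and 2, 13 without IL-4 replicate 1). The log2 difference changed sign without 1 library at Rara −734 bp (−0.0793 to 0.402), Ppard −120 bp (−0.54 to 0.355), Nr3c1 167391 bp (−0.311 to 0.517), Nr3c1 −2663 bp (−0.159 to 0.235), Rxra 10981 bp (−1.81 to 0.0501), Nr1h3 −1913 bp (−0.448 to 0.216), Ppard −8503 bp (−0.946 to 0.227), Rara 2535 bp (−1.13 to 0.574), Nr1d1 1302 bp (−0.335 to 0.102), Nr3c1 117606 bp (−0.636 to 0.156) and Nr3c1 236153 bp (−0.0642 to 0.288), which makes 11 of the 25 fitted regions, and kept its sign at the others. The cause was not tested. The lowest adjusted p of these regions over all these fits was 0.211. Depth is unknown, so a missing peak does not show closed chromatin.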
